A study of Mus musculus with 16 samples.

Results

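The 9 RNAs described here are Meg3, Rian, Mirg, Malat1, Neat1, Miat, Snhg11, Snhg14 and Gas5. The set is named for abundant long noncoding RNAs of neurons and of the cell nucleus, but not all 9 were abundant here. They were chosen by name, as the rows of the count table whose Ensembl identifiers carry these symbols in the GENCODE mouse annotation, and they are 9 of the 35328 genes counted. RNA came from the dorsal hippocampus of 16 C57Bl6/J mice in 4 groups of 4. The groups HC_water and HC_Caffeine stayed in the home cage and drank plain water or water with 0.3 g/L caffeine for 2 weeks, from an age of 8 to 9 weeks. The groups MWM_water and MWM_Caffeine received the same drinks and learned a Morris water maze, in which a mouse finds a hidden platform, for 3 days, and their tissue was taken 1 h after training. The labels name no transgene or targeted allele, and each library is 1 mouse. The MWM mice were also habituated to the pool before training, and no group swam without training. The comparisons ask whether regular caffeine intake or maze training changed these RNAs, and whether caffeine changed their response to training. The word learning stands here for the whole maze experience, in which learning, swimming and handling cannot be told apart.

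Long noncoding RNAs act as transcripts rather than as templates for protein. Some build nuclear bodies: Malat1 resides in nuclear speckles, where splicing factors are stored, and Neat1 is the scaffold of paraspeckles. Others are host transcripts whose introns or exons release small RNAs: Meg3, Rian and Mirg lie in a row in the imprinted Dlk1-Dio3 locus, are expressed from the maternal chromosome and carry microRNAs and small nucleolar RNAs, while Snhg14 is expressed in neurons from the paternal chromosome, holds large clusters of small nucleolar RNAs and runs antisense into Ube3a. Gas5 is a small nucleolar RNA host as well, known for its accumulation in growth-arrested cells and for binding the glucocorticoid receptor. Miat is a nuclear neuronal RNA that binds splicing regulators, and Snhg11 is a brain-enriched host transcript.

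The RNAs differ in what they carry, and a few sequences show it. In the annotation, Snhg14 spans 208 small nucleolar RNA genes on its own strand, Rian 13, Gas5 10 and Snhg11 2, whereas Mirg spans 14 microRNA genes, Rian 4 and Meg3 2. Inside Meg3, Rian and Mirg, RefSeq (GRCm38.p6) lists 35 mature microRNAs on the host strand with 34 different seeds, which are bases 2 to 8 and stand in capitals below. The lines give 1 microRNA of Meg3, 1 of Rian and 3 of Mirg, among them miR-496a-5p and miR-453, the only pair in the 3 hosts with a shared seed, and miR-134-5p, a regulator of dendritic spines. The libraries were made from polyadenylated RNA, so the counts below refer to the host transcripts and not to these small RNAs.
mmu-miR-770-5p in Meg3: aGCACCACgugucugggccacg
mmu-miR-370-3p in Rian: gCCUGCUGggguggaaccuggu
mmu-miR-134-5p in Mirg: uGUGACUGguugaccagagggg
mmu-miR-496a-5p in Mirg: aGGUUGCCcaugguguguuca
mmu-miR-453 in Mirg: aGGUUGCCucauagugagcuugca

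Malat1 and Neat1 are shown at their ends because these bear on how a poly(A)-selected library sees them: the long forms of both end in genome-encoded A-rich stretches held in a triple helix, not in a conventional poly(A) tail. The GENCODE M21 transcript of Malat1 is 6983 bases in 1 exon, and the stretch below (chr19:5795978-5796072, minus strand) has in capitals a pair of U-rich motifs, written with T, and an A-rich tract of 12 bases that begins at position 6674 of the transcript. The last 100 bases of the Neat1 transcript of 20771 bases (chr19:5824708-5824807, minus strand) follow, with its run of A in capitals.
Malat1: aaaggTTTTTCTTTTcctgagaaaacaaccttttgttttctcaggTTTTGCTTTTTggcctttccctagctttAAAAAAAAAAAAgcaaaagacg
Neat1: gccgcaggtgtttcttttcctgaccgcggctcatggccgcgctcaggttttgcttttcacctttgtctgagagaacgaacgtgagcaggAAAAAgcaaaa
What share of either RNA was captured was not tested, and the values of Malat1 and Neat1 below are the polyadenylated or A-rich-captured fraction.

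RefSeq promoter windows, 250 bases before to 50 after a start, were found for 8 of the 9 RNAs, 10 windows in all. The palindrome TGACGTCA, the full cAMP response element, which reads the same on both strands, occurred in 1 window of Meg3 and 1 of Gas5. It was present in 588 of the 32851 windows of the table, or 1.79%. Starts that open with a C and further pyrimidines are known from genes of the translation machinery, and a C followed by at least 4 pyrimidines opened 2.51% of the starts in all windows. Among the 10 windows, 1 of the 2 Gas5 starts met this with 5 leading pyrimidines and so did the Miat start with 6, whereas the other Gas5 start had 0 and the Mirg start 4. Below, the 120 bases around each start (Gas5, chr1:161035086-161035205, plus strand; Meg3, chr12:109540916-109541035, plus strand) have the palindrome in capitals, which begins at position -46 from the start in Gas5 and -57 in Meg3, and in Gas5 also the leading pyrimidines of the transcript. Neither match says that a factor was bound.
Gas5: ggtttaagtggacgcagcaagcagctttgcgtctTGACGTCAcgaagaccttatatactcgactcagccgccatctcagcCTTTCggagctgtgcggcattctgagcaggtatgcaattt
Meg3: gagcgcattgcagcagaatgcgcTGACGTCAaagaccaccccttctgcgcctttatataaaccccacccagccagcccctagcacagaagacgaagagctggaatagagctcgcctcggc

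The libraries held 23078094 to 49949281 counted reads, and the 9 RNAs had between 322 of them (Mirg) and 166487 (Meg3) in a mouse. Counts were scaled to CPM, the counts of a gene relative to the library total after TMM normalization, and all 9 RNAs passed the filter on low counts that left 17830 genes for testing. Depth differed between the groups, with median totals of 30203502.5 in HC_water, 34736321.5 in HC_Caffeine, 37367856.5 in MWM_water and 42497897.5 in MWM_Caffeine mice. Over the 16 libraries r of log2 CPM with the log2 total ran from -0.39 (Gas5) to 0.62 (Mirg) among the 9. Without HC_Caffeine replicate 17 r was -0.44 for Gas5, 0.77 for Mirg, 0.60 for Snhg11 and 0.57 for Meg3. The part of depth in the group differences was not tested. Libraries of the same group differed by more than counting noise in all 24 within-group pairs, so none was treated as a duplicate. On the first principal component, which held 18.4% of the variance, HC_Caffeine replicate 17 lay farthest out at -29.1, and MWM_water replicate 24 lay at -5.78, on the side of the home cage mice. HC_Caffeine replicate 17 also had the highest mitochondrial share of counts, 4.49%, and MWM_water replicate 24 the highest summed level of 6 oligodendrocyte markers, 11700 CPM. Values without these mice are given beside the results they moved most. All 8 neuronal markers were detected, with summed levels of 9950 to 12200 CPM, and the activity-induced genes Fos, Fosb, Egr2, Arc and Npas4 were higher after learning (adjusted p under 0.1 with edgeR) in 5 of 5 cases under water and in 4 of 5 under caffeine.

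The 9 RNAs together took 0.59% to 0.928% of all counts. By counts alone Meg3 had a mean of 2810 CPM ± 466 (SD, n = 16), which placed it 12th of 17830 genes, Snhg11 had 1480 ± 218, Malat1 1260 ± 186, Miat 638 ± 69.5 and Rian 463 ± 33.9. Neat1 had 207 CPM ± 49.3, Snhg14 112 ± 13.6, Gas5 109 ± 11.8 and Mirg 18.2 ± 3.53. Longer transcripts collect more reads, so genes are ordered here per kilobase of annotated exon. On that scale Malat1 had 180 CPM per kb ± 26.6, Snhg11 173 ± 25.5 and Meg3 155 ± 25.8; each was above 99% of the 17802 genes with a length, and their ranges over the mice overlapped. Miat followed with 68.6 CPM per kb (54.6 to 80.9), apart from its neighbours on either side. Gas5 with 29 (24.4 to 35.4) and Rian with 25.4 (22 to 29.1) overlapped. Neat1 had 9.95 CPM per kb (7.01 to 14.8), and Snhg14 with 4.29 (3.37 to 5.04) and Mirg with 2.5 (1.9 to 3.63) overlapped at the low end. Per kb, Snhg14 was above 53.9% and Mirg above 43.1% of the 17802 genes, so neither was abundant on this scale. The annotated exon of Neat1 is that of its long form, so its level per kb mixes short and long transcripts. Exon lengths join the exons of all annotated transcripts of a gene. For Gas5 they cover 3760 of the 4118 bases of the gene, so a shorter spliced form would have a higher level per kb.

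**Figure D1:**
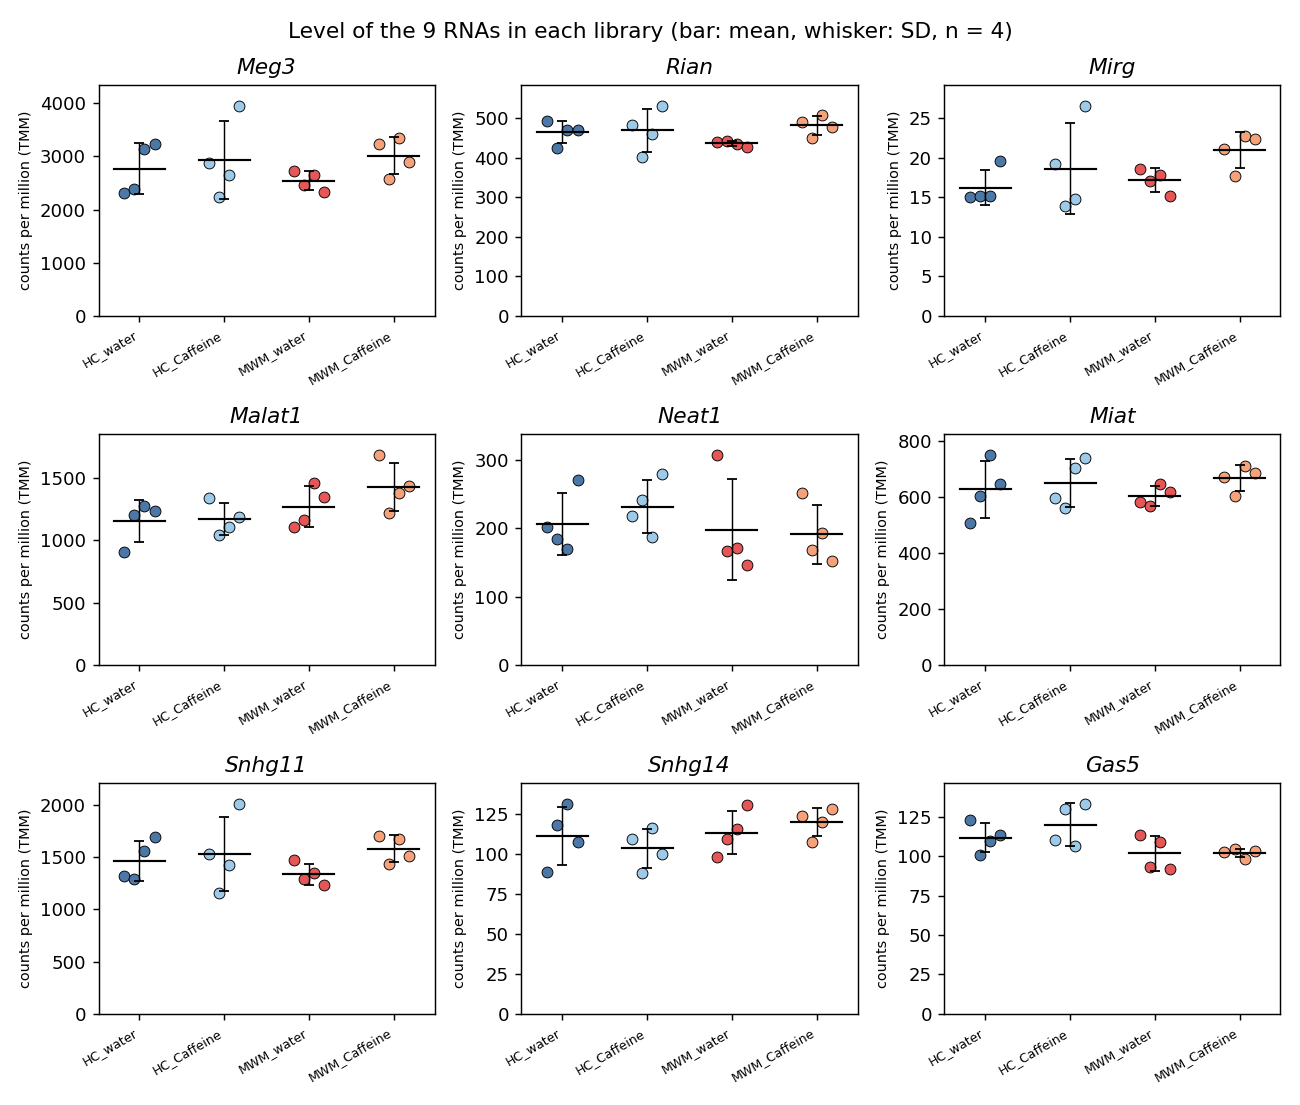
Level of each RNA in the 16 libraries (CPM, linear axis from 0), with 1 point per mouse, the group mean as a bar and the SD as a whisker (n = 4). Groups overlap in nearly all panels. HC_Caffeine replicate 17 is the highest point for Meg3, Rian, Mirg, Snhg11 and Gas5, and MWM_water replicate 24 is the highest for Neat1.

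The spread between mice of the same group set what could be seen. Neat1 had a within-group SD of 0.34 on the log2 scale, higher than in 96.5% of 13328 genes of at least moderate level, and Mirg (0.25), Meg3 (0.24) and Snhg11 (0.21) also varied more than the median gene (0.119). Rian was the steadiest with 0.10, and Gas5 had 0.13.

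With these spreads, few differences passed the test. The word called stands for an adjusted p under 0.1, with p from the quasi-likelihood test of edgeR and Benjamini-Hochberg adjustment over all 17830 genes. Of the 9 RNAs, 1 was called in any comparison: Gas5 was lower after learning when the responses under water and caffeine were averaged, a comparison in which 14.5% of all genes were called and 6.71% were called lower. In learning against home cage under water, 0 of the 9 were called by edgeR against 0.97% of all genes, 0 had an unadjusted p under 0.05 beside 11.8% of all genes, and DESeq2 called 0. Under caffeine edgeR called 0 of the 9 against 5.28% of all genes, 2 (Gas5 and Malat1) had an unadjusted p under 0.05 beside 18.8% of all genes, and DESeq2 called 0. The comparisons under water and under caffeine share no mice, and the average response uses all 16.

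For caffeine against water, edgeR called 0 of the 9 in the home cage, 0 after learning and 0 in the average over both conditions, and it called 0% of all genes in each of these comparisons. DESeq2 called 0 of the 9 in each as well. At an unadjusted p under 0.05 there were 0 of the 9 in the home cage and after learning, where all genes had 3.57% and 3.93%, and 1, Mirg, in the average, where all genes had 4.07%. The difference between the learning responses under caffeine and under water likewise gave 0 calls among the 9 with either tool, 0% calls over all genes with edgeR, and 0 of the 9 at an unadjusted p under 0.05, beside 3.63% of all genes. In 2 cases the groups of 4 did not overlap. These were Gas5 for learning under caffeine, beside 10.9% of all genes, and Rian for caffeine after learning, beside 2.6%. In the other comparisons 0 of the 9 were free of overlap, beside 6.99% of all genes for learning under water and 1.99% for caffeine in the home cage. The share was 1.32% for the average learning response and 0.00561% for the average caffeine difference. The fitted log2 differences of caffeine against water ranged from -0.11 to 0.20 in the home cage and from -0.05 to 0.29 after learning. In each, 8 of the 9 were positive, with medians of 0.063 and 0.147, beside medians of -0.003 and -0.004 over all genes. The count in the home cage rested on HC_Caffeine replicate 17: without this mouse 3 of the 9 were positive there, with a median of -0.015, and after learning 8 of the 9 were positive. Several of the 9 RNAs moved together from mouse to mouse, as described further on, so their signs are not independent. Each caffeine comparison shares its mice with the learning comparisons.

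**Figure D2:**
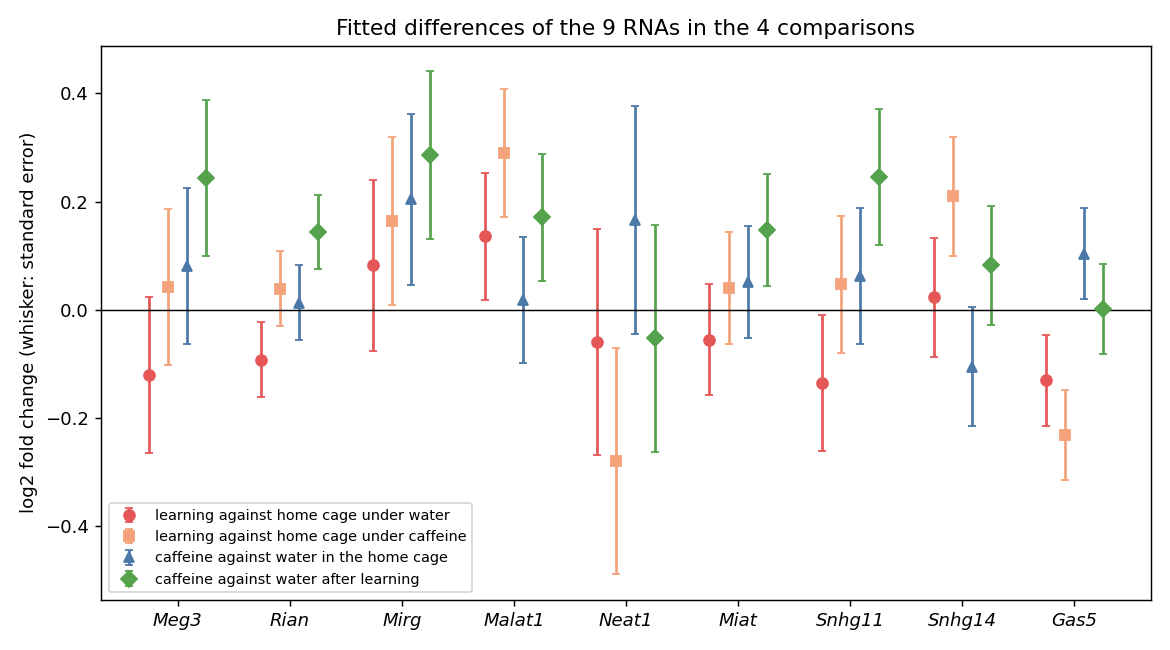
Log2 fold change of each RNA in the 4 comparisons of 4 mice with 4, with the standard error of the edgeR fit as whiskers. Malat1 under caffeine (0.29) and Gas5 under caffeine (-0.23) lie farthest from 0 in units of their errors among the learning comparisons, and none of the 36 points passes the test.

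Gas5 was the RNA with a call. In HC_water mice it measured 122.9, 100.5, 109.4 and 113.7 CPM, and in MWM_water mice 113.5, 93.1, 109.2 and 91.8 CPM. In HC_Caffeine mice it measured 110.0, 130.1, 106.6 and 133.3 CPM, and in MWM_Caffeine mice 102.3, 104.6, 98.4 and 103.1 CPM. Under caffeine every home cage mouse was above every mouse that had learned, while the water groups overlapped. The mean over 8 home cage mice was 116 CPM ± 11.7 and over 8 learning mice 102 ± 7.44, and the average learning response was -0.18 on the log2 scale (SE 0.06, 95% interval -0.31 to -0.06, adjusted p = 0.0662 with edgeR), or 11.8% lower after learning by the fit. The call was lost in 10 of 16 fits that each left out 1 mouse, in which the value stayed between -0.21 and -0.14, and without HC_Caffeine replicate 17, its highest mouse, it was -0.15 (adjusted p = 0.13). Without both HC_Caffeine replicate 17 and MWM_water replicate 24 it was -0.18 and called (adjusted p = 0.0578). Under caffeine alone the response was -0.23 (SE 0.08, adjusted p = 0.145), with an exact two-sided permutation p of 0.0286, the smallest that 4 mice against 4 can give; 10.9% of all genes had groups that did not overlap in this comparison. Under water it was -0.13 (SE 0.08, adjusted p = 0.564), and the difference between both responses was -0.10 (95% interval -0.35 to 0.15).

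The other small nucleolar RNA host genes were examined as a list of 21 symbols, of which 13 beyond Gas5, Snhg11 and Snhg14 were tested. In the average learning response 5 of these 13 were called lower and 0 higher (Snhg1, Snhg6, Snhg8, Snhg15 and Epb41l4aos), beside the 6.71% of all genes called lower given above. The median of the 13 was -0.22, against -0.01 over all genes. Snhg8 fell by 0.31 on the log2 scale (SE 0.08, adjusted p = 0.0212 with edgeR), from 15.9 CPM ± 2.04 to 12.8 ± 1.12 over 8 mice each. Snhg1 fell by 0.23 (SE 0.05, adjusted p = 0.0155) and Snhg15, at 2.5 CPM ± 0.39 in the home cage, by 0.32 (SE 0.10, adjusted p = 0.0653). Under water alone 13 of the 13 had a negative value and edgeR called 0, beside 0.331% of all genes called lower. At an unadjusted p under 0.05 there were 2 (Snhg1 and Snhg8), beside 11.8% of all genes in either direction. Under caffeine 12 of 13 had a negative value and 2 were called lower, Snhg8 (-0.39) and Snhg15 (-0.49), beside 2.13% of all genes. The count of 5 went to between 2 and 7 when single mice were left out, to 2 without HC_Caffeine replicate 17, to 4 without this mouse and MWM_water replicate 24, and to 2 when all genes with at least 1 count were tested.

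Their RefSeq starts can be set beside that of Gas5, since pyrimidine-led starts are known from transcripts of the translation machinery. The lines give the first 30 bases of the 3 called hosts other than Gas5 that have a start in the RefSeq table, with the leading pyrimidines in capitals (Snhg1, chr19:8723487-8723516, plus strand; Snhg8, chr3:123508307-123508336, minus strand; Snhg15, chr11:6528731-6528760, minus strand). Snhg8 opens with 6 pyrimidines and meets the criterion given above, Snhg1 with 3 does not, and the Snhg15 start in this annotation has 0.
Snhg1: CTCatttttccttgttcggggtaagtactc
Snhg8: CTCTTTggctgcgatccgcctacgagtatg
Snhg15: aactttaagcacacgtgagcgtcctcagct
Of 13327 other genes, the ones whose level most resembled that of Gas5 over the 16 libraries included Rps9 (r = 0.96 on log2 CPM), which encodes a protein of the small ribosomal subunit, and Ccs (r = 0.95), the copper chaperone of superoxide dismutase. These genes were picked as the most similar, so no p is given. Mitochondrial counts moved in the same direction as Gas5: they made up 3.55% to 3.89% of all counts in HC_water and 3.46% to 4.49% in HC_Caffeine mice, and 3.29% to 3.44% in MWM_water and 3.23% to 3.59% in MWM_Caffeine mice. Summed choroid plexus markers ranged from 301 to 2320 CPM in HC_water, 187 to 493 in HC_Caffeine, 160 to 427 in MWM_water and 113 to 200 in MWM_Caffeine mice. Over the 16 mice r of Gas5 on the log2 scale was 0.72 with the mitochondrial share and 0.17 with the choroid plexus markers. Without HC_Caffeine replicate 17 these were 0.58 and 0.27. Over the 16 mice and all marker lists r ran from -0.56 (neuron) to 0.57 (oligodendrocyte), with adjusted permutation p of at least 0.132. The part of the mitochondrial share or of any cell type in the Gas5 result was not tested. In whole tissue fewer cells of a type and less RNA per cell cannot be told apart.

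**Figure D3:**
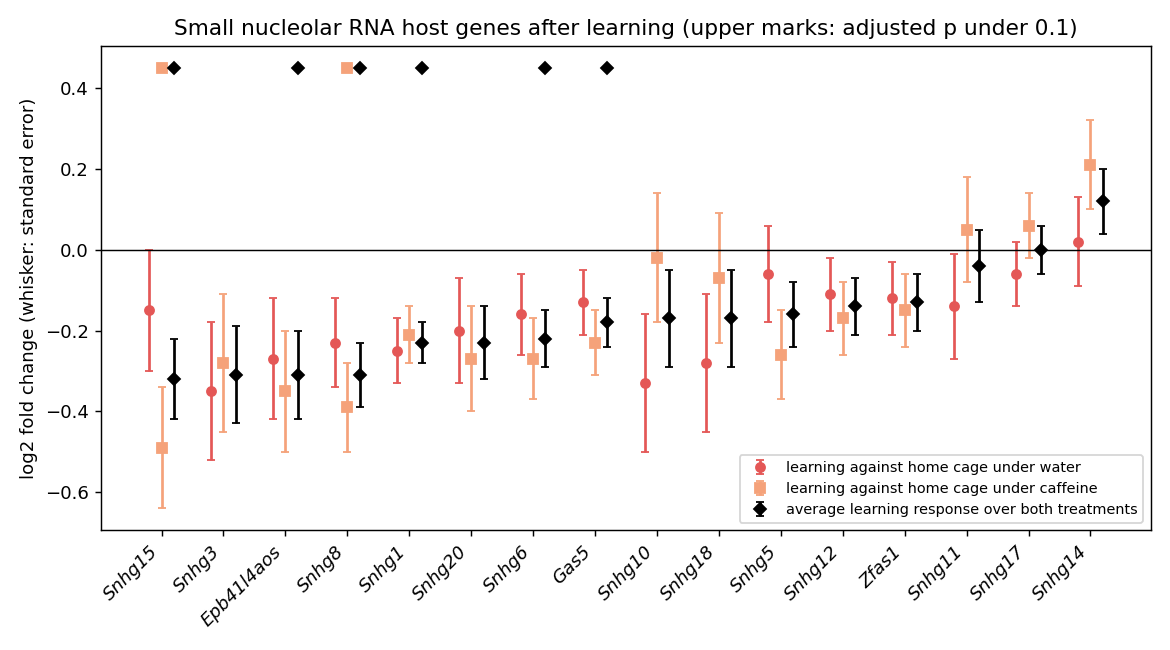
Learning responses of the 16 tested small nucleolar RNA host genes, as log2 fold changes under water, under caffeine and averaged, with standard errors as whiskers; marks along the top show calls at an adjusted p under 0.1. Most points lie below 0, Gas5 at -0.18 in the average and Snhg8 at -0.31, while Snhg14 lies at 0.12.

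Malat1 measured 902, 1203, 1278 and 1234 CPM in HC_water mice and 1109, 1162, 1461 and 1344 CPM in MWM_water mice. It measured 1337, 1043, 1107 and 1187 CPM in HC_Caffeine and 1685, 1220, 1377 and 1433 CPM in MWM_Caffeine mice. Each pair of groups overlapped, though 3 of the 4 MWM_Caffeine mice were above every HC_Caffeine mouse. The learning response was 0.14 on the log2 scale under water (SE 0.12, adjusted p = 0.672 with edgeR) and 0.29 under caffeine (SE 0.12, adjusted p = 0.194), and the average of 0.21 (SE 0.08, 95% interval 0.04 to 0.39, adjusted p = 0.118) missed the threshold. DESeq2 called that average (adjusted p = 0.0717), as did edgeR in 4 of the 16 fits without 1 mouse. Without both mice that stood apart it was 0.25 (adjusted p = 0.0874).

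Genes of the nuclear speckle and its splicing factors, the setting in which Malat1 resides, were tested as a list of 20. In the average learning response 6 of 20 were called higher and 0 lower, beside 7.81% of all genes called higher: Tra2a (0.31, SE 0.06, adjusted p = 0.00419 with edgeR), a splicing activator, the kinases Clk1 (0.28) and Clk4 (0.17), which phosphorylate SR proteins, and the SR protein genes Srsf3 (0.13), Srsf7 (0.17) and Srsf10 (0.17). Under caffeine alone 4 of 20 were called higher, Tra2a, Clk1, Srsf7 and Srsf3, beside 3.16% of all genes, and under water 0 of 20 were called and 8 had a negative value. Tra2a rose from 104 CPM ± 4.63 in HC_Caffeine to 138 ± 10.9 in MWM_Caffeine mice. Leaving out MWM_Caffeine replicate 40 reduced the count under caffeine from 4 to 2, and without both mice that stood apart the counts were 6 and 4. The genes most similar to Malat1 over the 16 libraries were Srrm2 (r = 0.86), which encodes a core protein of the speckle, Supt5 and Pop1 (both r = 0.84).

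Of the 9 RNAs, Neat1 varied most within groups. It measured 201, 184, 169 and 271 CPM in HC_water, 218, 242, 187 and 280 CPM in HC_Caffeine, 307, 167, 172 and 146 CPM in MWM_water and 251, 168, 192 and 153 CPM in MWM_Caffeine mice. The highest of all 16 was MWM_water replicate 24, whose level was above that of the other 3 mice of its group by more than their whole range. The learning response was -0.06 under water (SE 0.21) and -0.28 under caffeine (SE 0.21, adjusted p = 0.49 with edgeR), and the average was -0.17 (95% interval -0.48 to 0.14). Without MWM_water replicate 24 the average became -0.31 and was called (adjusted p = 0.0893), and the value under water became -0.35. Without this mouse and HC_Caffeine replicate 17 the average was -0.26 and not called. Counts of Malat1 were 3.61 to 9.38 times those of Neat1 in single mice, and the log2 ratio of Malat1 to Neat1 was 2.92 ± 0.21 in MWM_Caffeine against 2.34 ± 0.29 in HC_Caffeine mice (exact two-sided permutation p = 0.0286, and 0.229 after Benjamini-Hochberg adjustment over 16 such ratio tests).

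The mouse with the highest Neat1 level was also the one with the highest oligodendrocyte markers. Over the 16 mice the log2 level of Neat1 followed the summed level of the 6 markers with r = 0.79 and a Spearman rho of 0.75 (permutation p = 0.00023 and 0.0012, adjusted p = 0.0207 and 0.104 over 90 relations of the 9 RNAs with 10 marker lists). Without the 2 mice farthest from the median Neat1 level r was 0.71, within groups it was 0.80, and it was 0.56 among the 8 home cage and 0.90 among the 8 learning mice. Snhg14 went the other way, with r = -0.70 and rho = -0.64 (permutation p = 0.00215 and 0.0078, adjusted p = 0.058 and 0.117). Other marker lists gave values of similar size. Neat1 had r = -0.70 with astrocyte markers (adjusted permutation p = 0.061) and -0.67 with dentate granule cell markers (0.0698). With astrocyte markers r of Neat1 was -0.95 among the 8 home cage and -0.75 among the 8 learning mice. Without the 2 mice farthest from the median Neat1 level it was -0.51. Mirg had -0.74 with astrocyte and -0.70 with oligodendrocyte precursor markers (0.058 each), and Malat1 -0.68 with endothelial markers (0.0612). Without the 2 mice farthest from the median of the RNA these last 3 were -0.67, -0.59 and -0.47. The part of oligodendrocytes or other cells in the Neat1 values was not tested beyond these values. The gene most similar to Neat1 was Cln3, a lysosomal membrane protein gene (r = 0.94). Of 20 genes for paraspeckle proteins, the partners of Neat1, 2 were called higher in the average response, Sfpq (0.30, SE 0.07) and Rbm14 (0.26, SE 0.05), and 0 lower, beside 7.81% of all genes called higher. Both were also called under caffeine, where 3.16% of all genes were called higher, Sfpq at 247 CPM ± 11.3 against 191 ± 29.9. With single mice left out, edgeR called Sfpq under caffeine in 13 of 16 fits (adjusted p up to 0.115). Rbm14 was called there in 11 of 16 (adjusted p up to 0.181), and in the average response both were called in 16 of 16. Under water 0 of the 20 were called.

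Meg3, Rian and Mirg follow each other over the Dlk1-Dio3 locus on chromosome 12, between positions 109541001 and 109749460 on the plus strand. Meg3 measured 2313, 2392, 3128 and 3221 CPM in HC_water, 2873, 2229, 2646 and 3945 CPM in HC_Caffeine, 2731, 2458, 2652 and 2329 CPM in MWM_water and 3235, 2573, 3340 and 2892 CPM in MWM_Caffeine mice. Rian measured 492.5, 425.6, 470.3 and 470.1 CPM in HC_water, 483.0, 401.6, 459.5 and 530.5 CPM in HC_Caffeine, 438.3, 443.0, 435.6 and 426.5 CPM in MWM_water and 491.1, 450.7, 507.3 and 476.8 CPM in MWM_Caffeine mice. After learning, each caffeine mouse was above each water mouse in Rian, and for Meg3 the groups overlapped. Mirg measured 15, 15.2, 15.1 and 19.5 CPM in HC_water, 19.2, 13.9, 14.8 and 26.5 CPM in HC_Caffeine, 18.6, 17, 17.8 and 15.1 CPM in MWM_water and 21.1, 17.7, 22.7 and 22.3 CPM in MWM_Caffeine mice. HC_Caffeine replicate 17 was the highest of all mice for each of the 3 RNAs.

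After learning, caffeine against water gave 0.14 for Rian (SE 0.07, adjusted p = 0.999 with edgeR, exact two-sided permutation p = 0.0286), 0.24 for Meg3 (SE 0.14) and 0.29 for Mirg (SE 0.15), all on the log2 scale. In this comparison 2.6% of all genes had groups that did not overlap. In the home cage the values were 0.01 for Rian, 0.08 for Meg3 and 0.20 for Mirg, none of them larger than 1.5 times its standard error, and without HC_Caffeine replicate 17 they were -0.05, -0.09 and -0.01. The average caffeine difference of Mirg was 0.24 (SE 0.11, 95% interval 0.01 to 0.48, unadjusted p = 0.0403 and adjusted p = 0.985 with edgeR), and without HC_Caffeine replicate 17 it was 0.14. The learning responses of the 3 ranged from -0.12 for Meg3 under water to 0.16 for Mirg under caffeine. Without HC_Caffeine replicate 17 the response under caffeine was 0.39 for Mirg, 0.22 for Meg3 (from 0.04) and 0.11 for Rian (from 0.04). Of the 5 other tested genes of the locus, Dlk1, Dio3, Begain, Wdr25 and Wars, 0 were called in any comparison by edgeR, beside 0% of all genes in the caffeine comparisons and up to 14.5% in the average learning response, and Wdr25 under water, with a log2 change of -0.17 (adjusted p = 0.404), was nearest to the threshold in the comparisons of learning under water and under caffeine.

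The levels of the 3 RNAs went together from mouse to mouse, and so did Snhg11, which lies on chromosome 2. Over the 16 mice r was 0.83 between Meg3 and Mirg, 0.79 between Meg3 and Rian and 0.72 between Rian and Mirg, with rho of 0.84, 0.69 and 0.59 (permutation p for r of 9e-05, 0.00026 and 0.00164, adjusted p = 0.00081, 0.00187 and 0.00656 over the 36 pairs of the 9 RNAs). Without the 2 mice farthest from the median of the first RNA, r was 0.69, 0.64 and 0.52. Meg3 and Snhg11 were closest, with r = 0.98 and rho = 0.96 (permutation p = 1e-05 each, the smallest that the 100000 permutations can give, adjusted p = 0.00036). Without the 2 mice farthest from the median r was 0.96, within groups 0.97, and 0.98 and 0.97 among the home cage and the learning mice. Snhg11 was the gene most similar to Meg3 among 13327, followed by Agrn (r = 0.94) and Zmym3 (r = 0.93). Counts of Meg3 were 4.7 to 7.44 times those of Rian in single mice, and counts of Rian 20.1 to 32.8 times those of Mirg. All these values share the scaling of their library.

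**Figure D4:**
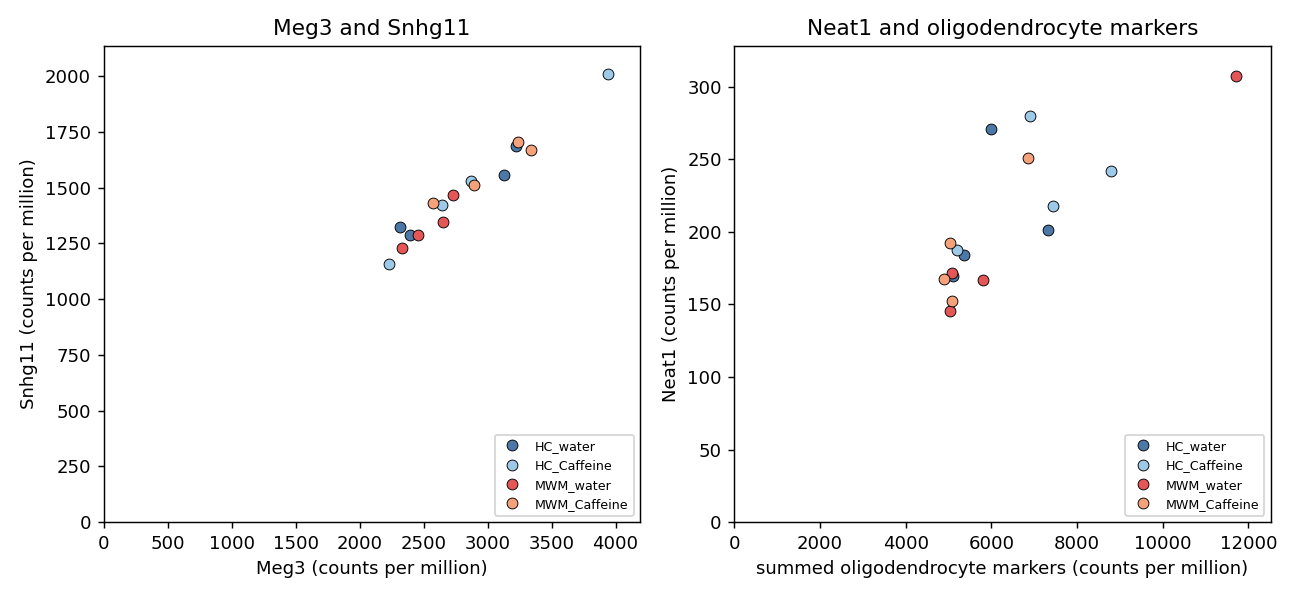
Left, Snhg11 against Meg3, and right, Neat1 against the summed level of 6 oligodendrocyte markers, each in CPM with 1 point per mouse and colours for the 4 groups. The 16 points of the left panel follow 1 line (r = 0.98 on log2 CPM), and in the right panel MWM_water replicate 24 lies at 11700 CPM of markers and 307.4 CPM of Neat1.

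Snhg11 ranged from 1287 to 1687 CPM in HC_water, from 1157 to 2011 in HC_Caffeine, from 1230 to 1467 in MWM_water and from 1432 to 1705 in MWM_Caffeine mice. Caffeine against water after learning was 0.25 on the log2 scale (SE 0.13, adjusted p = 0.999 with edgeR, exact permutation p = 0.0571), with overlapping groups, and in the home cage 0.06 (SE 0.13). The learning response was -0.14 under water and 0.05 under caffeine (SE 0.13 each). Without HC_Caffeine replicate 17 the home cage value was -0.09 and the response under caffeine 0.21. The annotation lists this gene as protein-coding, although it is used here by its name as a host transcript.

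Snhg14 lies on the minus strand of chromosome 7 (59307924 to 59975759) in 65 exon blocks. It ranged from 88.6 to 131.4 CPM in HC_water, 88.1 to 116.4 in HC_Caffeine, 97.9 to 130.6 in MWM_water and 107.6 to 128.1 in MWM_Caffeine mice. Learning gave 0.02 under water (SE 0.11) and 0.21 under caffeine (SE 0.11, adjusted p = 0.309 with edgeR), with overlapping groups. Over the 16 mice it ran with Malat1 (r = 0.76, rho = 0.70) and against Gas5 (r = -0.74, rho = -0.72), with permutation p for r of 0.0005 and 0.0011 and adjusted p = 0.00283 and 0.00495. Without the 2 mice farthest from the median Malat1 level r with Malat1 was 0.69. Without the 2 mice farthest from the median Snhg14 level r with Gas5 was -0.58. Its antisense partner Ube3a, a ubiquitin ligase that neurons express from the maternal chromosome, measured 149 CPM ± 10.3 in HC_water, 163 ± 15.3 in MWM_water, 139 ± 21 in HC_Caffeine and 154 ± 7.94 in MWM_Caffeine mice, and was not called. The ratio of Snhg14 to Ube3a after learning was higher with caffeine than with water by 0.17 on the log2 scale (exact two-sided permutation p = 0.0286, adjusted p = 0.229 over the 16 ratio tests). Exons of both genes overlap over 1803 bases. Whether the counting used the strand is not given in the sources used here, so the overlap may have affected either count and their ratio. How far it did was not tested. Of the 7 other tested genes of this imprinted locus, 1 was called in the average learning response, the flippase gene Atp10a, higher by 0.32 (SE 0.10, adjusted p = 0.0618), beside 14.5% of all genes called in either direction.

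Miat ranged from 507.3 to 752.1 CPM in HC_water, 561.6 to 741.1 in HC_Caffeine, 567.3 to 647.2 in MWM_water and 604.3 to 713.7 in MWM_Caffeine mice. Its average learning response was -0.01 (95% interval -0.16 to 0.15) and its average caffeine difference 0.10 (95% interval -0.05 to 0.25), on the log2 scale. The genes most similar to it were Hnrnpa1 (r = 0.88) and Pnn (r = 0.87), which encode a splicing regulator and a speckle protein. Of its 4 listed splicing partners 0 were called in the average learning response by edgeR, where 14.5% of all genes were called. A lincRNA on the opposite strand shares 24.32% of the Miat exon bases and had 191 counts over all 16 libraries. Whether counting used the strand is not given, so this count does not show how far the overlap affected Miat.

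The intervals give the precision behind the values without a call. The 95% interval of the average learning response ran from -0.13 to 0.08 for Rian, from -0.25 to 0.17 for Meg3, from -0.23 to 0.14 for Snhg11, from -0.05 to 0.28 for Snhg14 and from -0.11 to 0.36 for Mirg on the log2 scale. For caffeine against water over both conditions it ran from -0.07 to 0.18 for Gas5, from -0.02 to 0.18 for Rian, from -0.08 to 0.27 for Malat1 and from -0.25 to 0.37 for Neat1.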

How the data were processed

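Poly(A)-selected RNA of the dorsal hippocampus was sequenced in 16 libraries, 1 per mouse. The authors made stranded libraries, read single ends, used STAR and Bowtie 2 for alignment to mm10, and counted reads with a unique alignment per Ensembl gene with HTSeq 0.6.1p1 in union mode; the deposited values are raw counts without normalization, and the labels also name bcl2fastq 2.17.1.14. Whether counting used the strand is not given in the sources used here.

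From these counts, symbols and positions were taken from GENCODE M21 (35247 of 35328 genes matched), and the 9 RNAs by symbol. Tests used edgeR 4.0.16 in R 4.3.3: TMM scaling, filterByExpr by group (17830 genes), 1 mean per group over 16 libraries, the quasi-likelihood test, and Benjamini-Hochberg adjustment over all genes, with calls at an adjusted p under 0.1. Average comparisons take the mean of both responses. CPM are relative to the TMM-scaled total. Library totals of 23078094 to 49949281 counts gave a median standard error of 0.103 (log2) per gene for learning under caffeine. Single values were compared by exact two-sided permutation tests (70 assignments), and correlations used log2 CPM with 100000 permutations. Alternatives were DESeq2 1.42.0, its size factors in edgeR, other count filters, the 8 libraries of a comparison, a threshold of 0.05, robust fitting, and each library left out. Sequences came from RefSeq and GENCODE tables of GRCm38.p6. The tests were tested on simulated data.

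The 9 RNAs, the gene lists and the comparisons were chosen with earlier results of these data known. Genes named are the 9 RNAs, called list genes (up to 3 of smallest p per list and comparison, with the others listed after their values were seen), neighbours in the imprinted loci, and the 3 genes most similar to each RNA, of at least 1 average log2 CPM. A gene that this rule names is not reported here.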

Additional observations from a re-analysis of the deposited data

Results flagged for a closer look

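Among the 36 sets of 4 mice (9 RNAs in 4 groups), 2 held a mouse far from the other 3, judged by its gap to the nearest mouse as a share of the range of the group, above the 95% limit of Dixon's test; chance gives about 1 in 20 sets. For Mirg in HC_water, replicate 20 had 19.5 CPM against 15 to 15.2 CPM in the other mice, a share of 0.956. For Neat1 in MWM_water, replicate 24 had 307.4 CPM against 145.7 to 171.5 CPM, a share of 0.84. The same mouse had the highest oligodendrocyte marker level, 11700 CPM. HC_water replicate 20 had the highest choroid plexus marker level, 2320 CPM, and the lowest astrocyte marker level of its group, 4500 CPM. Over the 16 mice and all marker lists, r of Mirg ran from -0.74 (astrocyte) to 0.02 (oligodendrocyte), with -0.37 for choroid plexus. The part of any cell type in these values was not tested. None of the 9 RNAs was called for a difference between its learning responses under caffeine and water. The 95% intervals of that difference leave room for one, from -0.84 to 0.40 for Neat1 and from -0.07 to 0.34 for Rian on the log2 scale.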

How the results depend on the processing

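Of the 7 comparisons, 5 gave 0 called members under every setting tried. For the average learning response, the count of 1 (Gas5) became 2 (Malat1 and Gas5) with DESeq2, with all genes of at least 1 count, and without HC_Caffeine replicate 17 and MWM_water replicate 24 together, an alternative chosen after seeing the data, and 0 at an adjusted p under 0.05. With single mice left out it was 0 to 3. Gas5 was not called without HC_water replicate 6, 11 or 20, HC_Caffeine replicate 9 or 17, MWM_water replicate 33 or 38, or MWM_Caffeine replicate 22, 30 or 40 (adjusted p up to 0.154). Malat1 was called without HC_water replicate 11, HC_Caffeine replicate 2, MWM_water replicate 24 or MWM_Caffeine replicate 27, and Neat1 without MWM_water replicate 24. For learning under caffeine the count of 0 became 1, Gas5, without HC_Caffeine replicate 14, a range of 0 to 1. Of 1485 values of the 9 RNAs under an alternative, 56 had the opposite sign of the value reported, none of them called in either fit. Among these were Mirg for caffeine in the home cage, 0.20 and without HC_Caffeine replicate 17 -0.01, and Neat1 for caffeine after learning, -0.05 and without MWM_water replicate 24 0.24.

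The 5 other small nucleolar RNA host genes called lower became 2 with all genes of at least 1 count and 2 at an adjusted p under 0.05, and 2 to 7 with single mice left out. The 4 speckle genes called under caffeine became 2 to 5. These list counts were tried after seeing the data. The cause of these changes was not tested.

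Calls over all genes moved from 173 to 427 with DESeq2, 290 with all genes of at least 1 count, 85 with the 8 libraries and 70 at an adjusted p under 0.05 for learning under water, and from 942 to 1561, 617 and 449 under caffeine with DESeq2, the 8 libraries and the stricter threshold. The average response moved from 2590 to 1384 at that threshold. Without single mice the counts were 37 to 312 under water and 382 to 1231 under caffeine. Caffeine comparisons with 0 calls had 19, 6 and 16 with DESeq2 and 34, 8 and 36 with all genes of at least 1 count (home cage, after learning and average), and the difference between responses 6 and 9; none was a member.

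No paired analysis was possible because no replicate number occurs in more than 1 group. Depth was lowest for Mirg, with 322 to 1132 counts per library.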

Other observations

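Of 20 other tested long noncoding RNAs of brain, 2 were called lower in the average learning response and 0 higher: Mir9-3hg, a host of a miR-9 gene, with 28.6 CPM ± 3.49 in 8 home cage and 23.4 ± 1.42 in 8 learning mice (log2 change -0.29, SE 0.07, adjusted p = 0.016 with edgeR), and Pantr1, with 46.7 CPM ± 5.58 and 39.1 ± 5.13 (log2 change -0.25, SE 0.07, adjusted p = 0.0446). In this comparison 6.71% of all genes were called lower.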
